A study of Amphimedon queenslandica with 124 samples.

Results

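The comparison of cloud with brown embryos of the demosponge Amphimedon queenslandica rests on 14 libraries, 7 from cloud embryos and 7 from brown embryos, out of 124 in the series. Members were chosen by the developmental stage in the labels. Each library holds the polyadenylated RNA of a single individual, read by CEL-seq, in which barcoded primers let the 3' ends of transcripts from many individuals be sequenced together. The animals were collected one by one from a reef population and staged by their morphology, with no treatment and no engineered genotype. The labels give neither the age of an embryo nor its mother, so embryos of a stage may be siblings. The p-values for stage differences below weigh a difference against the spread between these individuals. They take the individuals as independent, which siblings would not be. Other stages used here are cleavage, spot, late spot, ring and late ring, with 7 embryos each, and 13 free-swimming larvae. After the larva come settlement (10 individuals), mat-formation (34), chamber-formation (3), tent-pole-formation (6), juvenile (5) and adult (3).

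Embryos of this sponge grow inside brood chambers of the mother. As background, cleavage gives a solid mass of cells of unequal size, and the cells then sort into an outer layer and an inner mass. Pigment cells scattered over the brown embryo gather at the future posterior pole, first as a diffuse cloud, then as a spot, and at last as a ring. In the swimming larva the pigment ring, with the long cilia beside it, steers the animal away from light. The step from brown to cloud is the one at which the pigment first becomes polarised. Gene models in the deposited table carry identifiers with no names, and 0 of 36868 matched the reference table of gene names. The changes are therefore described by groups of genes and by 4 gene models taken by a rule.

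Brown libraries held 542013 to 2275742 counts and cloud libraries 580452 to 3059409. The difference in total was smaller than the spread between embryos (exact two-sided permutation test, p = 0.565, n = 7 per stage). Thinned to 542013 counts each, cloud libraries showed 11087 ± 1123 gene models (SD, n = 7) and brown libraries 11328 ± 1442, a difference within the spread (exact permutation p = 0.72). The 10 most abundant gene models of a library took 12.4% to 31.3% of its counts at brown and 13.8% to 20.0% at cloud. The closest pair of libraries within brown differed by a chi-square of 23.4 per degree of freedom and within cloud by 21.9, so no library was a repeat of another.

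About as many genes were called higher as lower in cloud when all 14 embryos were fitted with the settings used here. Of 6363 gene models tested, 833 (13.1%) were higher in cloud and 860 (13.5%) were lower, 26.6% in all. A call means a Benjamini-Hochberg adjusted p under 0.05 in the quasi-likelihood test of edgeR, fitted over the 14 embryos. Among the called genes, rises were larger than falls. The median log2 fold change was 1.73 among genes that rose, with quartiles of 1.33 and 2.31, and -1.38 among genes that fell, with quartiles of -1.73 and -1.12. Over all genes tested the median was -0.08, with quartiles of -0.74 and 0.63, so there the rises were not the larger. A change of at least 4-fold was seen in 309 of the genes that rose and in 121 of those that fell, and of at least 8-fold in 64 and 20. The typical gene that rose went from 40.4 to 125 CPM (a gene's share of the library's counts, scaled to a common total; the median over genes of the stage means), and the typical gene that fell went from 80.7 to 26.2 CPM.

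The balance of rises and falls depended on the scaling, the filter and the embryos used. Genes that rose made up 49.2% of calls with edgeR's TMM scaling, 41.5% with upper quartile scaling and 37.4% with library totals alone, where the median of all genes stood at -0.19 and -0.23. Without a filter on low counts the share was 63.3%. It was 73.4% of the 365 calls in one fit of all stages, 75.9% of the 54 calls among embryos numbered 1 to 50 and 78.2% of the 371 calls among those numbered 51 to 100. Single embryos also moved the number of fallen genes, which was 544 without cloud replicate 2 and 569 without cloud replicate 7.

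**Figure D1:**
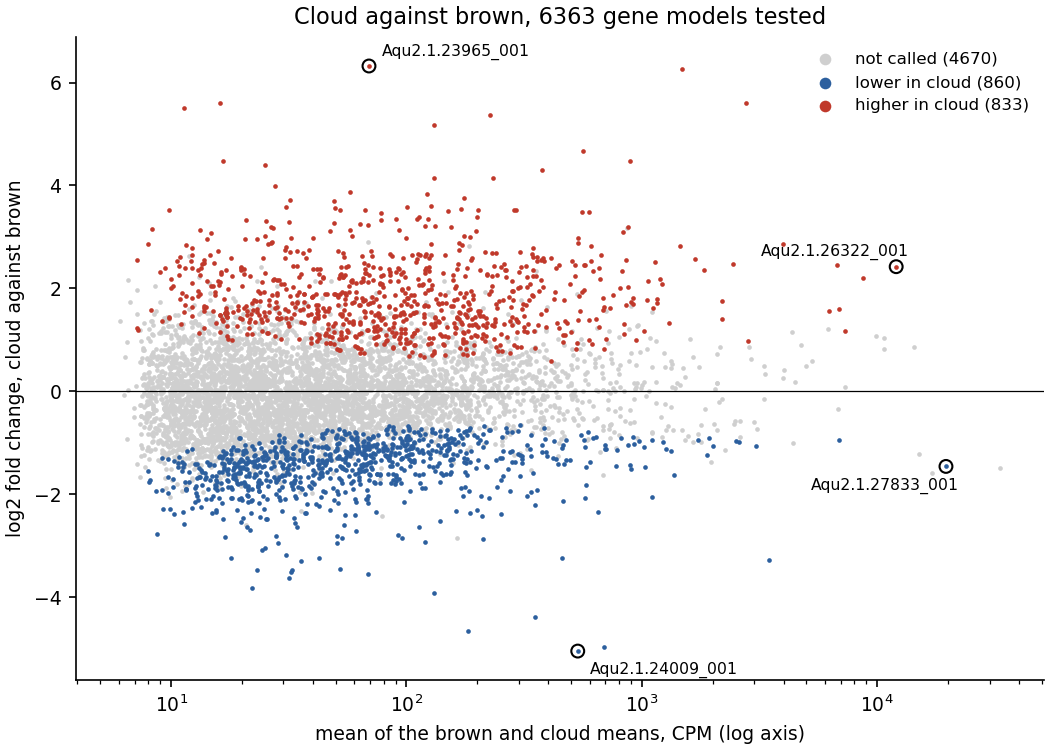
Each point is 1 of the 6363 gene models tested, placed by the mean of its brown and cloud means in CPM (log axis) and by its log2 fold change in cloud against brown. Red points are the 833 genes called higher in cloud, blue points the 860 called lower, and circles mark the 4 gene models described one by one. Changes past 3 on the log2 scale are more frequent above the line than under it.

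Among the 833 genes that rose, 249 were higher in each of the 7 cloud embryos than in any brown embryo. Over all genes tested the number was also 249 (3.91%), so each such gene was called. Among the 860 that fell, 179 were lower in each cloud embryo than in any brown embryo, and over all genes tested 189 (2.97%). Calls and overlap come from the same values, so these numbers are a description. Most of the calls thus came from stages whose embryos overlapped. In 10 of the genes that rose a single cloud embryo held more than 50% of the summed CPM, and cloud replicate 1 was that embryo in 6 of them. Of the genes that fell, 11 rested in this way on a single brown embryo, replicate 1 in 7 of them. For 3 genes that rose and 1 that fell, the medians of the stages lay in the opposite direction to the call.

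The embryo numbers in the labels allowed the step to be read in separate sets of individuals. Embryos numbered 1 to 50 gave 4 libraries per stage and those numbered 51 to 100 gave 3. In the second set 290 genes were called higher in cloud. Of the 284 also tested in the first set, which shares no embryo with it, 283 had the same direction there, against 74.6% of all genes with a positive fold change. Their median log2 fold change was 2.69 in the set that called them and 1.92 in the other. All genes with a positive fold change had a median of 0.76 in the second set, so the 2 shares compare changes of unlike size. Of the 284, 24 were called in the first set as well. All 77 genes called lower that were tested in the first set were lower there as well, against 81.5% of all genes with a negative fold change. Here too the sizes were unlike, with medians of -2.37 and -0.71 in the second set. The first set called 7 of the 77. The first set on its own called 54 genes and the second 371.

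Brown embryos were spread more widely than cloud embryos along the path from cleavage to spot. Each library was placed on a scale between cleavage and spot, from the 1232 genes called higher and the 936 called lower in spot against cleavage (43.0% of 5037 tested), a comparison that uses no brown or cloud library. On this scale the mean of the cleavage libraries is 0 and that of the spot libraries is 1. Cloud embryos stood within a narrow range, from 0.879 to 0.940 with a mean of 0.899 ± 0.024 (SD, n = 7). Brown embryos spanned 0.285 to 0.806, with a mean of 0.53 ± 0.193 (n = 7). Replicates 4 and 1 lay nearest to cleavage, at 0.285 and 0.340. Replicates 5 and 7 stood at 0.456 and 0.471. Replicates 2, 6 and 3 lay nearest to cloud, at 0.665, 0.687 and 0.806. No brown embryo reached the lowest cloud embryo, and none fell to the highest cleavage embryo at 0.133.

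**Figure D2:**
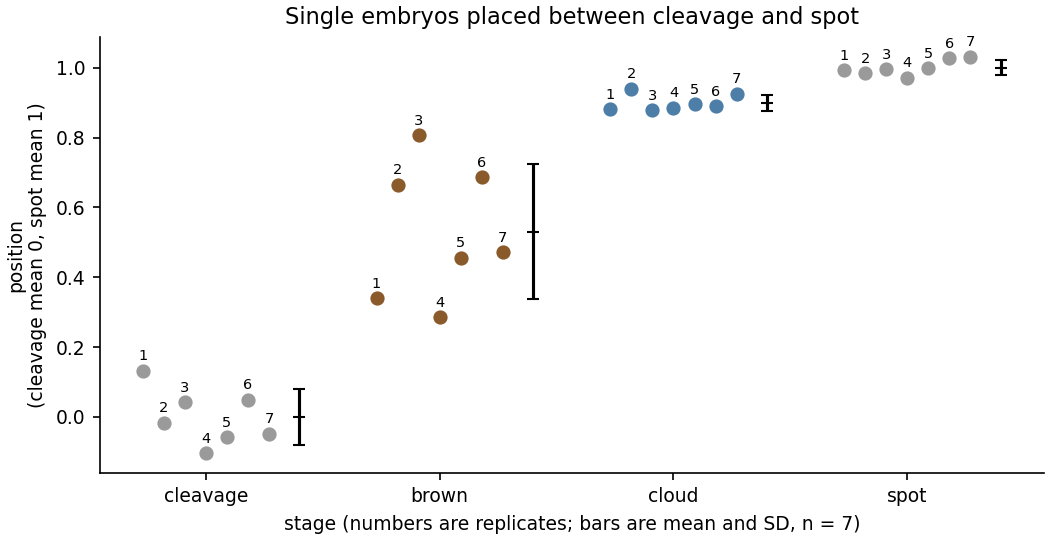
The vertical axis gives each embryo's position on a scale where the cleavage mean is 0 and the spot mean is 1, computed from genes that differ between cleavage and spot. Points are single embryos numbered by replicate and bars show the mean and SD of the 7 embryos of a stage. Brown embryos spread from 0.285 to 0.806, and cloud embryos sit between 0.879 and 0.940.

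No relation of position with depth was detected at brown, where 7 embryos limit what a correlation can show. Over the 7 brown embryos the position had a Pearson r of -0.0073 with the total count (exact permutation p = 0.997) and a Spearman rho of 0.214 (exact permutation p = 0.662), and r was -0.219 without replicates 1 and 7. With the number of genes detected at equal depth r was -0.392 (exact permutation p = 0.4) and rho -0.357 (exact permutation p = 0.444), and r was -0.373 without replicates 1 and 5. With the same relations at cloud, 4 were computed, and the lowest Benjamini-Hochberg adjusted permutation p was 0.882. Thinning each library of the 4 stages to an equal depth left the brown range at 0.276 to 0.804. The range ran from 0.285 to 0.806 among brown embryos numbered 1 to 50 (n = 4) and from 0.456 to 0.687 among those numbered 51 to 100 (n = 3), too few in either set for a correlation.

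The spread of single genes was also wider at brown. The biological coefficient of variation estimated by edgeR was 0.603 within brown and 0.511 within cloud. The ratio of the 2 values was 1.18, and it ran from 1.14 to 1.26 when any 1 embryo was left out. Among genes that rose, 80.7% had a larger SD of log2(CPM + 1) at brown than at cloud, with a median SD of 0.943 against 0.544. Among genes that fell the share was 62.7%, and among the 4670 genes not called it was 58.5%. Brown and cloud values chose the first 2 of these groups, so the shares are a description.

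Genes that rose held 9.26% ± 4.65 (SD, n = 7) of all counts at brown and 30.6% ± 2.62 at cloud. In single brown embryos the share was lowest in replicate 4, at 4.41%, and highest in replicates 3 and 6, at 15.1% each. The lowest cloud embryo had 26.8%. Genes that fell held 20.3% ± 7.07 (n = 7) of counts at brown and 7.29% ± 0.984 at cloud. Here brown replicate 3 was lowest, at 9.53%, close to the highest cloud embryo at 9.23%. Brown replicate 4 was highest, at 29.1%. The 10 most abundant genes of each group made up 30.7% of the risen group's counts at cloud and 33.0% of the fallen group's counts at brown.

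The steepest rise among genes with at least 50 CPM in the higher stage was in Aqu2.1.23965_001. Brown embryos had 0 to 5.53 CPM with a median of 1.44, and cloud embryos 17.9 to 292 CPM with a median of 118. The stages did not overlap, and the lowest cloud embryo was replicate 3, with 26 counts. The log2 fold change was 6.32 (SE 0.662, Benjamini-Hochberg adjusted p = 3.14e-05 by edgeR). At spot it was higher still, with a median of 266.5 CPM (26.2 to 417, n = 7). Late spot embryos ranged from 1.12 to 183 CPM, with a median of 83.5. By ring the median was 4.56 CPM, and 8 of 13 larvae had no count. The highest ring embryo, at 13.1 CPM, was below the lowest cloud embryo and the lowest spot embryo.

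Aqu2.1.26322_001 had the largest rise in mean CPM. It stood at 128 to 11789 CPM in brown embryos, with a median of 1388, and at 13174 to 42318 CPM in cloud embryos, with a median of 15979. No brown embryo reached a cloud embryo. Brown replicates 2, 3 and 6, at 5844, 8219 and 11789 CPM, were above the other 4, which had 1388 CPM or less. The log2 fold change was 2.42 (SE 0.757, edgeR's adjusted p = 0.0263). The call was lost in 5 of 27 alternatives, over which the adjusted p ran from 0.000828 to 0.201. Among them were the fits without brown replicate 5 (edgeR adjusted p = 0.0509) or brown replicate 7 (edgeR adjusted p = 0.0536). One fit of all stages (edgeR adjusted p = 0.0742) and embryos numbered 1 to 50 (edgeR adjusted p = 0.201) lost it too. Cleavage embryos had 75.9 to 480 CPM. The level stayed high through ring, at a median of 28948 CPM, and at late ring it spread from 164 to 25438 CPM. Larvae had a median of 828 CPM (227 to 3907, n = 13).

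Aqu2.1.24009_001 fell the most steeply. Brown embryos had 36.3 to 3632 CPM with a median of 344, and cloud embryos 1.24 to 44.7 CPM with a median of 36.9. The stages overlapped through brown replicate 2 alone, which was below 4 of the 7 cloud embryos. The log2 fold change was -5.05 (SE 0.914, with an adjusted p of 0.00126 in edgeR). Among embryos numbered 1 to 50 alone it was -5.02 and the call was lost (edgeR's adjusted p = 0.0675), 1 of 27 alternatives. At cleavage the gene model was uneven, from no count to 1596 CPM with a median of 4.24. From late spot onwards the stage medians lay between 0 and 13.2 CPM.

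The largest fall in mean CPM was in Aqu2.1.27833_001, with 7044 to 52660 CPM at brown (median 27962) and 4790 to 15865 CPM at cloud (median 7535). Brown replicates 3 and 6 lay within the cloud range, and the other 5 lay above it. The log2 fold change was -1.46 (SE 0.475, edgeR's adjusted p = 0.0312). In 11 of 27 alternatives the adjusted p was above 0.05, 8 of them with 1 embryo left out, and it reached 0.322 among embryos numbered 1 to 50 (edgeR). It stood at a median of 14856 CPM at cleavage and 15797 CPM at spot, so the brown median was above those of cleavage, cloud and spot.

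**Figure D3:**
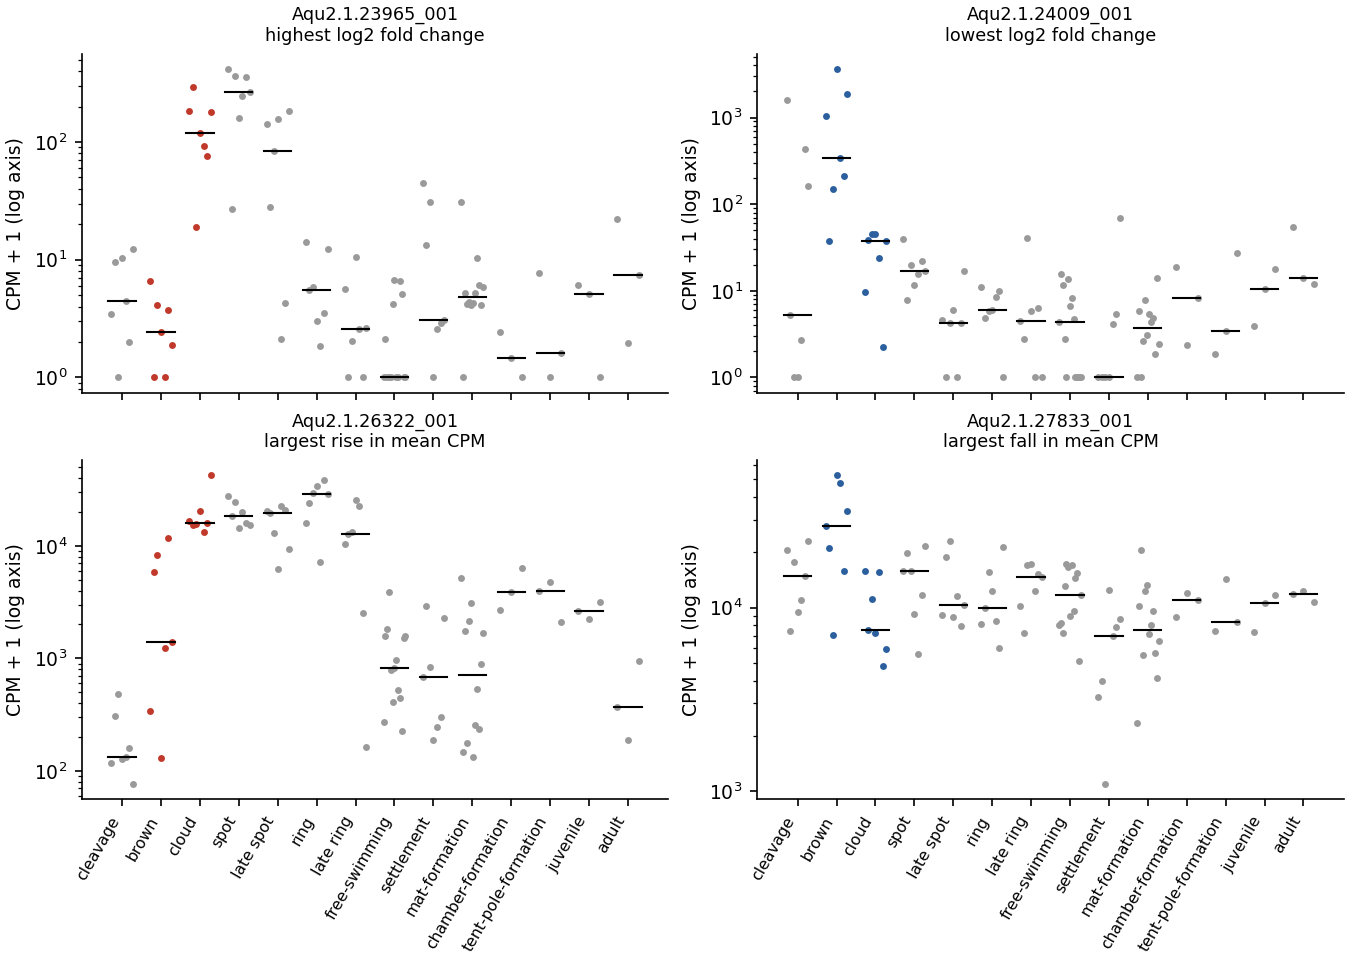
Each panel gives 1 gene model in each library of at least 100000 counts, as CPM + 1 on a log axis, by stage. Coloured points are the brown and cloud embryos that entered the test, grey points are other stages and black bars are medians. The upper left gene model is high at cloud, spot and late spot, at medians of 118, 266.5 and 83.5 CPM, and low at ring.

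At cleavage, before the brown stage, the genes that rose had a lower mean level still, also against the mean of all genes tested. Cleavage embryos had a mean log2(CPM + 1) over these genes of 3.75 ± 0.44 (SD, n = 7), brown embryos one of 5.07 ± 0.68 and cloud embryos one of 6.94 ± 0.14. Set against the mean of all genes tested in the same library, they stood at -0.99 ± 0.33 (SD, n = 7) at cleavage, -0.30 ± 0.60 at brown and 1.65 ± 0.16 at cloud. Of the 833 genes, 677 (81.3%) had a lower mean at cleavage than at brown. The share was 80.6% among the fallen genes and 72.1% among all genes tested. With only the 4 cleavage libraries of at least 500000 counts, it was 80.7% among risen genes. It was then 52.4% among fallen genes and 60.6% among all genes tested. The part of depth in these shares was not tested. Of the risen genes, 69 (8.28%) were at cleavage nearer to their cloud level than to their brown level. They took 4.97% ± 0.492 of counts at cleavage. Brown values helped to choose the genes, so these counts were not tested.

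The contrast of spot with cleavage shares no embryo with the selection. In spot against cleavage, 599 of the 731 risen genes that could be tested (81.9%) were called higher at spot, against 24.5% of all 5037 genes tested, and 7 were called lower (edgeR's quasi-likelihood test, 7 against 7 embryos). The 7 became 3 without cleavage replicate 4, 4 without spot replicate 3, and 11 without cleavage replicate 1 or 5. Over the 731 risen genes tested the median log2 fold change was 3.10, against -0.06 over all genes. Of the 731, 380 were called higher at spot by at least 8-fold, against 561 of all 5037 genes tested. A gene could pass the filter through its spot libraries alone, where the risen genes were high. The mean log2(CPM + 1) of the risen genes at spot was 6.85, against 4.95 for all genes tested between brown and cloud. The shares called thus compare genes of unlike level, and the part of level in them was not tested. Nor were the shares called in the comparisons below matched for level.

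The fallen genes held 31.0% ± 2.31 (SD, n = 7) of counts at cleavage, more than at brown. At cleavage 1 gene model alone supplied 25.3% of that share, and the 10 most abundant supplied 52.0%. The mean log2(CPM + 1) of the set, in which each gene weighs the same, was 5.72 ± 1.00 at cleavage, against 6.30 ± 0.45 at brown and 4.77 ± 0.15 at cloud. Cleavage replicates 2 and 4, with 236080 and 214376 counts, were low at 4.02 and 4.60. The other 5 stood between 6.09 and 6.71, among them replicate 3 with 325307 counts and 6.13. The part of depth in these 2 low values was not tested. Of the 860 genes, 445 (51.7%) were nearer at cleavage to their cloud than to their brown level when all 7 libraries were used, and 163 (19.0%) when the 3 libraries under 500000 counts were left out.

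In spot against cleavage, 269 of the 711 fallen genes tested (37.8%) were called lower at spot, against 18.6% of all genes tested, and 7 were called higher. The 7 became 4 without cleavage replicate 3 or 5 or without spot replicate 4 or 7. The other 435 were not called. The median log2 fold change was -0.94 over the fallen genes tested.

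After cloud, the risen genes stayed near their cloud level through spot, and from late spot to late ring their mean level declined, as did that of all genes tested. The mean log2(CPM + 1) was 6.85 ± 0.23 (SD, n = 7) at spot, 6.66 ± 0.24 at late spot, 6.38 ± 0.25 at ring and 5.70 ± 0.53 at late ring. On a scale with the brown mean at 0 and the cloud mean at 1, spot stood at 0.949, late spot at 0.848, ring at 0.699 and late ring at 0.334. All genes tested went from 5.29 ± 0.12 (n = 7) at cloud to 4.72 ± 0.27 at ring, about as far as the risen genes. Set against all genes tested, the risen genes stood at 1.65 ± 0.16 at cloud, 1.90 ± 0.08 at spot, 1.91 ± 0.24 at late spot and 1.66 ± 0.11 at ring, and at 1.08 ± 0.37 at late ring. The share of counts was 33.0% ± 2.11 at spot, 33.0% ± 2.16 at late spot, 29.8% ± 2.58 at ring and 23.5% ± 3.95 at late ring. Among the 12 stages that took no part in the selection, spot was the stage of highest mean for 310 of the 833 genes (37.2%), against 10.2% of all genes tested. Late spot was highest for 143 more (17.2%, against 4.24%).

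Late ring against spot, which again shares no embryo with the selection, called 305 of the 773 risen genes tested (39.5%) lower at late ring, against 14.8% of all 4790 genes tested, of which 29.0% were called in either direction. In 62 of the 773 the fall was at least 8-fold, against 121 of all 4790 genes tested. At late ring 84 risen genes (10.9%) were called higher, against 14.2% of all genes, and 384 were not called.

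**Figure D4:**
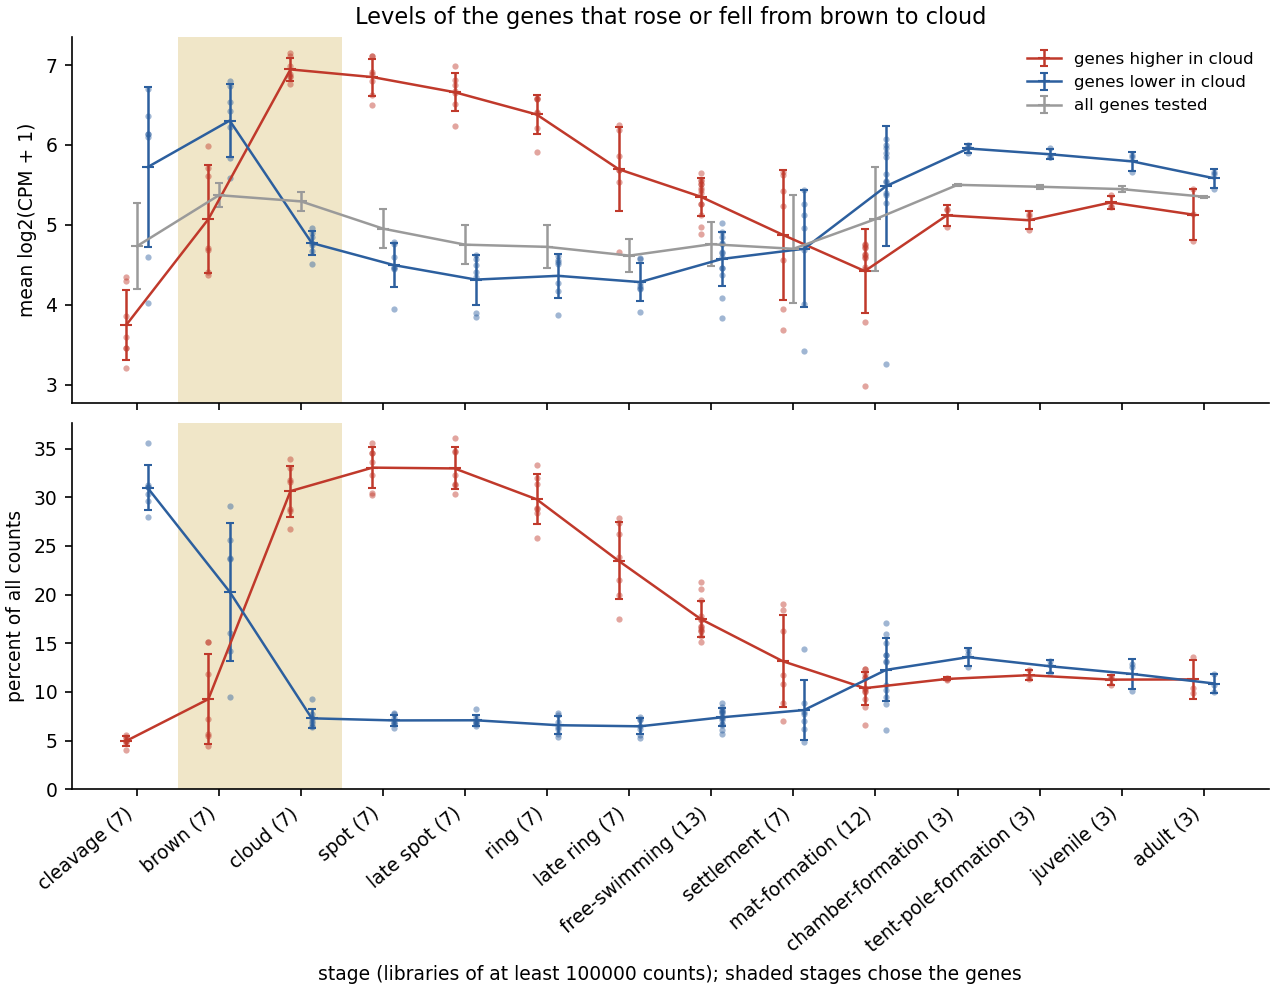
Upper panel, mean log2(CPM + 1) over the 833 genes that rose (red), the 860 that fell (blue) and all 6363 tested (grey), and lower panel, the percent of all counts held by the first 2 groups, by stage. Points are libraries of at least 100000 counts, bars show the mean and SD, numbers beside stages are libraries, and the shaded stages chose the genes. The risen genes stay above 6 from cloud to ring and reach 5.35 in larvae, and the fallen genes stay under 5 from cloud to settlement.

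The fallen genes had low levels in each later embryonic stage. By mean log2(CPM + 1) they stood at 4.50 ± 0.28 (SD, n = 7) at spot, 4.31 ± 0.31 at late spot, 4.36 ± 0.27 at ring and 4.28 ± 0.24 at late ring. At spot 848 of the 860 (98.6%) were nearer to their cloud level than to their brown level, and at late ring 817 (95.0%). Below their cloud level were 597 (69.4%) at spot and 656 (76.3%) at late ring. The mean of all genes tested fell too, from 5.29 ± 0.12 at cloud to 4.95 ± 0.25 at spot (n = 7 each). No such share was taken over all genes, so these counts are a description. Late ring against spot called 40 of 587 fallen genes higher (6.81%, against 14.2% of all genes tested) and 33 lower (5.62%, against 14.8%). The 33 became 16 to 21 when any of late ring replicates 1 to 4 or spot replicates 1, 2, 3 or 7 was left out, and 9 without a filter on low counts. Against all genes tested, whose mean fell to 4.61 ± 0.21 at late ring, the fallen genes stood at -0.52 ± 0.10 at cloud and -0.33 ± 0.12 at late ring (n = 7 each).

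More of the risen genes were lower in the free-swimming larva. Between late ring and free-swimming larvae, 164 of the 662 risen genes tested (24.8%) were called lower and 4 were called higher, against 8.46% lower and 3.21% higher among all 4896 genes tested, 11.7% in all (13 larvae against 7 embryos). The 164 became 103 without late ring replicate 2, and the 4 became 10 without late ring replicate 7. Fallen genes gave 20 higher (3.25%) and 25 lower (4.06%) of 616. The 20 became 9 to 12 without late ring replicate 2, 3, 4 or 5, and 33 without late ring replicate 7, so which direction had more calls rested on single libraries. In larvae the risen genes stood at 5.35 ± 0.24 (n = 13) and took 17.5% ± 1.87 of counts, and the fallen genes stood at 4.57 ± 0.33 with 7.39% ± 0.943 of counts.

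Risen genes that changed at settlement were mostly lower. Within embryo numbers 1 to 100, settlement against free-swimming larvae called 152 of the 534 risen genes tested (28.5%) lower, against 15.0% of all 3581 genes tested, and 36 higher (6.74%, against 12.3%). Of the 438 fallen genes tested 62 (14.2%) were higher, against 12.3% of all genes, and 11 (2.51%) were lower, against 15.0%. The share higher was thus near that of all genes. The 11 became 30 without settlement replicate 7, 7 without settlement replicate 6 or free-swimming replicate 2, and 100 without a filter on low counts. Of all genes tested, 27.3% were called. This fit held 7 settlement and 13 larval libraries, and 3 of the settlement libraries had under 100000 counts.

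**Figure D5:**
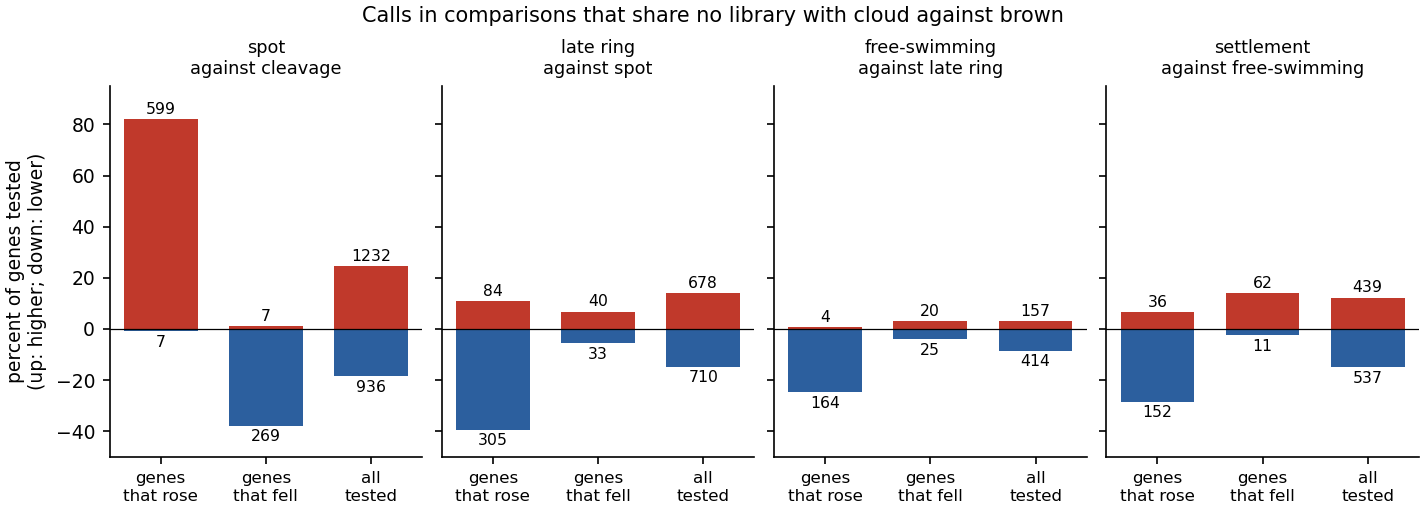
Bars give the percent of genes called higher (red, upwards) and lower (blue, downwards) in each of 4 comparisons, for the genes that rose from brown to cloud, those that fell, and all genes tested, and numbers on the bars are genes. None of these comparisons uses a brown or cloud embryo. In spot against cleavage 599 risen genes were higher and 7 lower, and in each later comparison more risen genes were lower than higher.

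From mat-formation to adult the mean level of the fallen genes was above that of the risen genes, while at settlement it was 4.70 ± 0.73 (SD, n = 7) against 4.87 ± 0.82. At chamber-formation the fallen genes were at 5.96 ± 0.05 (SD, n = 3) and the risen genes at 5.12 ± 0.13, where all genes tested were at 5.50 ± 0.01. Adults had 5.58 ± 0.12 (n = 3), 5.13 ± 0.32 and 5.35 ± 0.01. Of the 860 fallen genes, 270 (31.4%) had their highest mean at chamber-formation among the 12 stages outside the selection, against 16.8% of all genes tested, and 163 (19.0%) had it at cleavage, against 9.65%. At chamber-formation 26.0% of the fallen genes were nearer to their cloud than to their brown level, and 51.5% in adults, with no such share taken over all genes. The 12 libraries from chamber-formation to adult that have at least 100000 counts all carry numbers in the set from 101 to 124, in which no embryo or larva lies, so stage and number set cannot be told apart here. That set also holds 9 of the 12 mat-formation libraries and 3 of the 7 settlement libraries, so those means pool 2 sets. In the 3, settlement replicates 8 to 10, risen genes stood at 5.42 to 5.66 and fallen genes at 5.13 to 5.44. In the other 4 settlement libraries they stood at 3.68 to 5.24 and 3.42 to 4.96.

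In late stages a part of the risen genes stood nearer to their cloud level. In adults 240 of the 833 (28.8%) were nearer to their cloud than to their brown level, and 249 (29.9%) at chamber-formation. In larvae the number was 317 (38.1%), and at late ring 350 (42.0%). Mat-formation had the fewest of the later stages, 201 (24.1%). These are counts of stage means and were not tested.

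Runs of consecutive identifiers were counted as well. Of 424 risen genes whose next identifier was also tested, 58 (13.7%) were followed by another risen gene, against 13.5% of all genes with a tested neighbour. For fallen genes the number was 85 of 458 (18.6%, against 15.2%). Neither share was tested, and where the identifiers lie in the genome is not given in the sources used here.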

How the data were processed

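Counts per gene model and individual were deposited by the authors as whole numbers, not normalized. CASAVA 1.8, HTSeq 0.5.4p3 and Bowtie2 2.1.0 are listed in the submitters' processing notes. The sources used here do not give their settings, the genome build or whether molecular identifiers were collapsed. The table was held in part, with 36868 complete gene models, and library totals are sums over these. All 124 columns belong to the series.

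Brown and cloud libraries were compared by the two-sided quasi-likelihood test of edgeR 4.0.16 (R 4.3.3), after TMM scaling and filterByExpr. The threshold was a Benjamini-Hochberg adjusted p under 0.05. The filter took a count minimum of 10, scaled to library size, and a total of 15. That minimum had to be met in about as many libraries as the smaller stage holds, not in each library. Each fit held the 2 stages compared, and 4 further pairs of stages were fitted in the same way. The SE given with an edgeR log2 fold change is its absolute value over the square root of the test's F statistic. It is thus no separate estimate. DESeq2 1.42.0 was an alternative. CPM are counts scaled to equal library totals, and levels are means of log2(CPM + 1) over genes, in libraries of at least 100000 counts, which left out 30. Relative levels put the brown mean at 0 and the cloud mean at 1. Single values were tested by exact permutation with scipy 1.17.1. Replicates were numbered in accession order and pair nothing.

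Named gene models have an adjusted p under 0.05 and at least 50 CPM in the higher stage, and are the highest and lowest log2 fold changes and the largest rise and fall in mean CPM. The comparison and its gene groups were chosen with earlier results of these data known. Gene lists by name could not be applied. Counts were also simulated for cloud against brown (6363 genes). There edgeR recovered 81.8% of 66 genes changed 8-fold, 61.2% of 67 changed 4-fold and 7.46% of 67 changed 2-fold. Of its 104 calls 3.85% were false. With 1693 calls in the data, these shares need not hold there. Alternatives are given in the closing section.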

Additional observations from a re-analysis of the deposited data

Results flagged for a closer look

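In 70 stages and measures looked at, 8 had 1 library far from the other 6, with a gap to its nearest neighbour that was large for the range of the stage. For independent values with a normal distribution, chance would flag about 1 in 20, or 3.5 of 70. The CPM of single genes were uneven and the measures share libraries, so that rate need not hold here. Cloud replicate 4, the deepest library of the comparison, had 13397 gene models at equal depth. Cloud replicate 7 had 42318 CPM of Aqu2.1.26322_001. For Aqu2.1.24009_001 the libraries apart from their stage were cleavage replicate 1, with 1596 CPM, late spot replicate 7, with 16.0 CPM, late ring replicate 3, with 39.2 CPM, and settlement replicate 10, with 67.5 CPM. Spot replicate 7, at 375199 counts, had the lowest level of the fallen genes in its stage, a mean log2(CPM + 1) of 3.95. Settlement replicate 7 had the highest share of counts in the fallen genes, 14.4%.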

How the results depend on the processing

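No paired analysis was possible because replicate numbers follow accession order and mark no shared animal or day. The 1693 calls between brown and cloud became 2060 with DESeq2's Wald test, which held 828 of the 833 risen and 858 of the 860 fallen genes. With each embryo left out in turn they ran from 1283 to 2063, with 675 to 1019 genes that rose and 544 to 1044 that fell. One fit of all stages called 365 (268 rose, 97 fell), embryo numbers 1 to 50 alone 54 (41 and 13), and embryo numbers 51 to 100 alone 371 (290 and 81). Without a filter on low counts 558 genes fell, and 513 fell with cloud replicate 1 and brown replicate 4 both left out, an alternative chosen after seeing the data. The sets by embryo number hold fewer embryos, and the cause of the other differences was not tested.

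The difference in genes detected, cloud less brown, was 522 without thinning and ran from -626 to 211 with 1 embryo left out, above 0 without brown replicate 1. The spread within brown over that within cloud ran from 1.14 to 1.26. Leaving out 1 library gave 103 to 234 risen genes lower in larvae than at late ring. Risen genes lower at settlement numbered 336 without a filter.

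Levels on the scale from brown (0) to cloud (1) moved by more than 1 SD in these cases. With TMM-scaled CPM the risen genes stood at 0.878 at ring, -0.094 at chamber-formation, -0.11 at tent-pole-formation and 0.023 in juveniles. The fallen genes stood at 1.36 in larvae, 0.507 at chamber-formation, 0.544 at tent-pole-formation, 0.554 in juveniles and 0.736 in adults. With libraries under 100000 counts included, risen genes stood at -0.776 at mat-formation, -0.654 at tent-pole-formation and -0.456 in juveniles, and fallen genes at 1.81, 1.51 and 1.18. With DESeq2's genes, the fallen set stood at 0.193 at chamber-formation. In simulated counts edgeR recovered 7.46% of the genes changed 2-fold, in a setting with 104 calls. The data gave 1693 calls, with log2 fold changes as small as 0.595 and -0.663. The simulated share therefore does not say how many 2-fold changes were missed here.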

Other observations

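The individual with embryo number 36 has no stage in the labels. Its library holds 23082 counts, fewer than the minimum set here for stage levels. On the scale from cleavage (0) to spot (1) it stood at 0.411. It had 6.99% of counts in the genes that rose from brown to cloud and 4.87% in those that fell. The position and the risen share lay within the brown ranges, 0.285 to 0.806 and 4.41% to 15.1%. The fallen share was below that of each library from cleavage to spot, where spot replicate 5 was lowest, at 6.29%. Later stages were not placed on this scale, so the position does not give the stage of this individual, which was not tested.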
